A study of Mus musculus with 4 samples.

Results

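Mitosis divides a duplicated genome between daughter cells, and its machinery is encoded by a large set of genes that are switched on late in the cell cycle. Cyclin B with its kinase Cdk1 drives entry, condensins compact the chromosomes, kinetochores tie them to spindle microtubules, and a checkpoint holds the cell until every chromosome is attached. The anaphase-promoting complex then triggers separation, and a contractile ring splits the cell. In the embryonic jaw this machinery serves the rapid growth of the mandibular arch, in which Bmp4 is a patterning signal. A list of 60 mitotic genes, sorted by step, was followed across the 4 arrays of a study of mouse mandibles at stage E11.5. Each gene was represented by its brightest probe, the one with the highest mean over all arrays. A named probe was deposited for 56 of the 60 genes, and for 16637 genes in all. Ccnb1, Foxm1, Kifc1 and Espl1 had none and are not analysed here.

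The samples were whole mandibles on a C57BL/6 background. The control group was wild-type, with 2 arrays. The other group, also with 2 arrays, carried a conditional Bmp4 overexpression that had been induced with doxycycline for 24 hours. The promoter or cell type driving the transgene and any doxycycline given to controls are not stated in the sources used here, so drug, genotype and Bmp4 cannot be told apart. Nothing in the labels says that arrays of a group were from separate embryos, and the p-values therefore cover only the spread between these arrays, which may be technical. Values are log2 intensities, on which a difference of 1 is a 2-fold change, and the p-values are from limma, adjusted over all probes by Benjamini-Hochberg, with a threshold of 0.05.

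Bmp4 read 11.96 and 12.07 on the control arrays and 15.27 and 15.31 on the overexpression arrays, a 9.68-fold difference that checks the labels (limma, adjusted p = 0.00137). Among markers fixed for other cell types, globin genes (Hbb-y, Hbb-bh1 and Hba-x) were near the top of the scale in both groups, and the erythroid genes Alas2 and Klf1 were lower, with 2 of 6 erythroid markers lower and 0 higher (limma; the same counts at an unadjusted p under 0.05). The 3 globins held 92.6% to 95.2% of the summed linear intensity of these markers (203909 and 197566 on control arrays, 195676 and 191952 on overexpression arrays), so that sum could not show a change. Without them it went from 13773 and 14604 to 9295 and 9735. Of 7 macrophage markers 3 were higher (C1qa, C1qb and Adgre1), and their sum went from 2058 and 2066 to 3213 and 3373. Of 8 epithelial markers 3 were higher (Cdh1, Krt8 and Krt18) and 2 lower (Krt5 and Krt14), with a median log2 fold change of 0.19. Their sum went down, from 35942 and 37559 to 29259 and 30571, and was carried by Krt14, without which it went up, from 8766 and 8027 to 13323 and 13726. Mesenchymal markers had 2 of 8 higher (Msx1 and Prrx2) and 1 lower (Twist1), with sums of 66094 and 65792 against 72165 and 72921, or, without Msx1, 50378 and 49856 against 40513 and 40827. In endothelium 1 of 6 was higher (sums of 6620 and 6504 against 7852 and 8222). In muscle progenitors 1 of 6 was higher (Actc1), with sums of 4379 and 3924 against 5152 and 5328, which overlapped without Actc1 (1482 and 1296 against 1330 and 1559). In neurons 1 of 8 was lower (Nefm) and 0 were higher, with a median log2 fold change of 0.29. Elavl3, which did not pass (limma, adjusted p = 0.0552), held 87.2% to 92.3% of the sum. That sum was 26032 and 36060 against 48962 and 50885, and 3339 and 3064 against 3888 and 3897 without Elavl3. Over all named genes 9.54% were lower and 7.39% higher by adjusted p, and 18.8% and 17.6% at an unadjusted p under 0.05 (limma). At the unadjusted threshold, macrophage markers had 5 higher and 0 lower, endothelial 3 and 0, and muscle 2 and 0. Neuronal markers had 3 higher and 2 lower, epithelial 3 and 3, and mesenchymal 2 and 2. The part of these marker shifts in the results below was not tested. In whole tissue, fewer dividing cells and less RNA per dividing cell cannot be told apart.

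Mitotic genes were lower in Bmp4 overexpression mandibles at nearly every step. Of the 56 measured, 49 fell, 0 rose and 7 did not pass in limma, where 9.54% of all named genes fell and 7.39% rose. At an unadjusted p under 0.05, 50 were lower and 2 higher, beside 18.8% of all named genes lower and 17.6% higher. The median over the 56 genes was 11.85 and 11.84 on the control arrays and 11.10 and 11.05 on the overexpression arrays. Both overexpression arrays thus lay below both controls by many times the distance between arrays of a group. The median log2 fold change of the genes was -0.90, a level of 53.7% of control, against 0.00 for all named genes, and the middle of the list ran from -1.10 (lower quartile) to -0.65 (upper quartile). The genes that fell did so by between 0.47 and 1.64 on the log2 scale, with adjusted p-values from 0.0429 to 0.00347. In 52 of 56 genes both overexpression arrays read below both controls, while 32.3% of all named genes did so. Leaving out a single array, whichever it was, left 0 genes of the list past the limma threshold: without control replicate 1 or 2 the lowest adjusted p was 0.191 or 0.138, with 49 or 48 genes lower at an unadjusted p under 0.05, and without overexpression replicate 1 or 2 it was 0.170 or 0.155, with 50 or 49. At the study's stated threshold of a 2-fold change with an unadjusted p under 0.05, 19 of the 56 genes were lower, against 1.76% of all named genes.

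**Figure D1:**
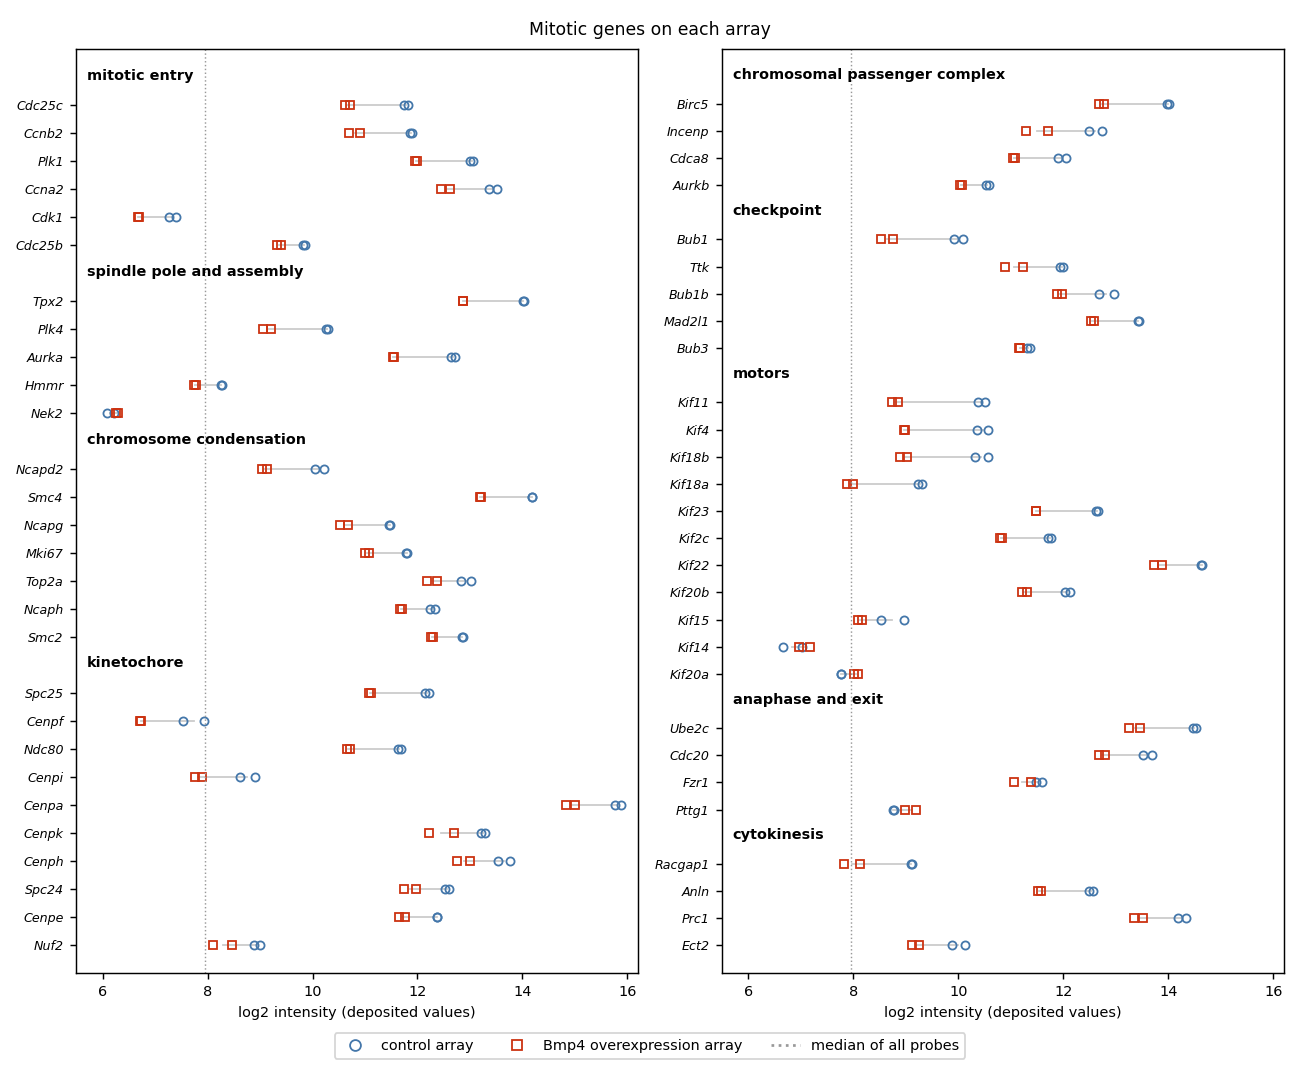
Log2 intensity (horizontal axis) of each of the 56 measured mitotic genes on each array, grouped by step. Circles are the 2 control arrays, squares the 2 Bmp4 overexpression arrays, the grey line joins the group means and the dotted line marks the median of all probes, 7.95. In 52 genes both squares lie left of both circles.

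The promoters of many of these genes hold elements known from late cell cycle genes, the class from which the list was drawn. The shares below therefore describe that class, and a link to the change with Bmp4 was not tested. Many late cell cycle genes carry a cell cycle genes homology region (CHR), an element bound by the MuvB complex close to the start site, and CCAAT boxes bound by NF-Y upstream of it. In the RefSeq promoter table (GRCm38.p6, 250 bases before to 50 after each start) 48 of the 56 genes matched, with 53 windows. The canonical CHR was searched as TTTGAA on both strands, and 36 of the 53 windows held it (67.9%), against 14.2% of the 16667 windows of measured genes and 17.9% of all 32851 windows. Some genes, such as Ect2, Prc1 and Bub3, have windows that overlap, so a match can be counted more than once. By gene, 33 of the 48 held the canonical CHR, against 2228 of 13345 measured genes. Within 50 bases of the start it stood in 31 windows (58.5%), against 3.62% of windows of measured genes. CCAAT, on both strands, was found in 41 windows (77.4%), against 37.1% of windows of measured genes. The rarer CHR form TTCGAA was in 4 windows (7.55%, against 1.90% in measured genes), and an E2F site written TTGGCGC, or as TTCCCGC, or as TTCGCGC, was in 13 (24.5%, against 11.4% in measured genes). Counted by window, matches of different motifs overlapped 3 times. These were a CHR with a CCAAT box in Cdca8 and an E2F site with a CCAAT box in Ect2. The Ect2 overlap was counted again in another window of that gene that covers the same bases. In the 40 windows of the G1/S and DNA replication genes described below, 12.5% held the canonical CHR, 60% CCAAT and 57.5% an E2F site. The E2F share was thus higher there than in the mitotic list. A match is a string of letters and not a site shown to be bound.

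The stretches below show where these elements lie in the genes with the largest falls that hold a canonical CHR in the 120 bases before to 30 after the start. They are written 5′ to 3′ on the gene's own strand. Capitals mark the CHR (TTTGAA, or TTCAAA where it lies on the opposite strand) and the CCAAT box (CCAAT, or ATTGG on the opposite strand).
Kif11, chr19:37376262-37376411, plus strand: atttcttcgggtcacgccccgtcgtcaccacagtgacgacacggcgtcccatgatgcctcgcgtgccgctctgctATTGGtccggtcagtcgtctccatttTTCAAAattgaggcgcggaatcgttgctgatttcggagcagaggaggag
Kif4, chrX:100625945-100626094, plus strand: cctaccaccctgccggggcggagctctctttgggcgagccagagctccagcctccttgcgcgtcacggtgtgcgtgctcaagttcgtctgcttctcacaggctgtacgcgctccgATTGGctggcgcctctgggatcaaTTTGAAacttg
Kif18b, chr11:102925095-102925244, minus strand: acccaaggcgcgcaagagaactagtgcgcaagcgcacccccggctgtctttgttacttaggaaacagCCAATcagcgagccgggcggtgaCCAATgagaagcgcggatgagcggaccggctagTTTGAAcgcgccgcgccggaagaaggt
Kif23, chr9:61946770-61946919, minus strand: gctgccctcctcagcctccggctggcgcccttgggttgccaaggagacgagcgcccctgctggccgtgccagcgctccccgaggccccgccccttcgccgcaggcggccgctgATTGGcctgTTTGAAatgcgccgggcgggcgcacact
Ube2c, chr2:164769809-164769958, plus strand: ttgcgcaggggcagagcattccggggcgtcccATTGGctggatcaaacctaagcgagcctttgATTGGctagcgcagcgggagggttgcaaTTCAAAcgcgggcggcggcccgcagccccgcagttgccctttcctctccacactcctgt
Racgap1, chr15:99651627-99651776, minus strand: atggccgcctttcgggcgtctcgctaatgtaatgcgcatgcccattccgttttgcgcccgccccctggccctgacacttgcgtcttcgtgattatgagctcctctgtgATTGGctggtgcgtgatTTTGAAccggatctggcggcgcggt

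In each of the 6 stretches at least 1 CCAAT box stands before the CHR. The first base of the CHR lies at -19 in Kif11, 19 in Kif4, 3 in Kif18b, 2 in Kif23, -29 in Ube2c and 5 in Racgap1, counted in bases from the start site. Of the 29 matched genes with a canonical CHR within 50 bases of the start, 27 fell, and their median log2 fold change was -0.91. Of the 19 matched genes without one, 15 fell, with a median of -0.76. Bub1 and Cdc25b, among these 19, hold the form TTCGAA there, with its first base at 14 and 7. With either form counted, 29 of 31 genes with a CHR near the start fell (median -0.91) and 13 of 17 without one (median -0.76), which include Kif18a and Birc5. Outside the list, 553 measured genes had a canonical CHR within 50 bases of a start. Of those 12.7% fell and 7.05% rose, with a median of 0.01, beside 9.10% lower and 7.22% higher among 12744 genes without one.

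**Figure D2:**
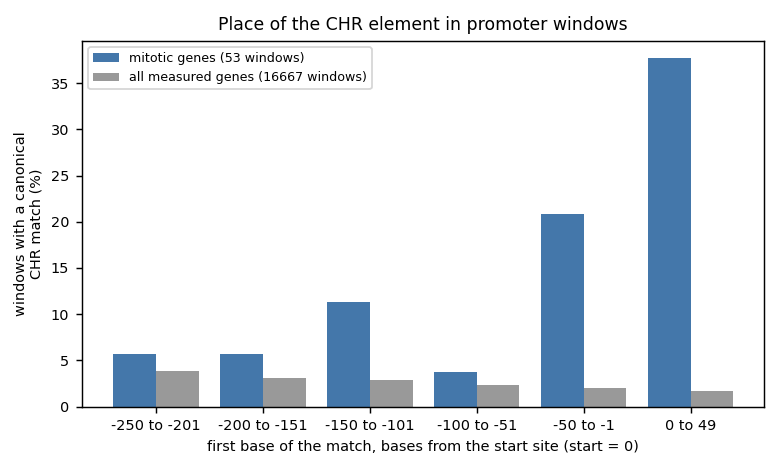
Percent of promoter windows (vertical axis) with a canonical CHR match whose first base falls in each 50-base bin from the start site (horizontal axis), for the mitotic genes (53 windows, blue) and all measured genes (16667 windows, grey). In the mitotic genes the share is 37.7% in the bin from 0 to 49 and 20.8% in the bin from -50 to -1, against 1.67% and 2.01%.

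All 6 measured genes of mitotic entry fell, with a median log2 fold change of -0.98. Cdc25c, a phosphatase that activates Cdk1, read 11.74 and 11.81 in controls and 10.61 and 10.72 in overexpression samples, a 2.16-fold fall. Plk1, the kinase that promotes entry and later steps, read 13.06 and 13.00 against 11.99 and 11.96, a 2.08-fold fall. Ccnb2, a B-type cyclin, read 11.89 and 11.86 against 10.91 and 10.70, or 2.10-fold lower. In each the groups stood apart by more than the distance between arrays of a group (limma, adjusted p = 0.00700, 0.00700 and 0.00929). Ccna2, the cyclin of S and G2 phase, fell to 53.6% of control. Cdk1 was dim, at 7.26 and 7.39 in controls, and fell to 63.9% of control. The smallest fall of the step was that of Cdc25b, another Cdk1-activating phosphatase, to 71.9%.

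Among genes of the spindle poles and spindle assembly, 4 of 5 fell. Tpx2, which activates Aurka on spindle microtubules, read 14.02 and 14.01 in controls and 12.86 on both overexpression arrays. Aurka, the pole kinase, read 12.64 and 12.71 against 11.53 and 11.55, and Plk4, the kinase that starts centriole duplication, read 10.29 and 10.26 against 9.20 and 9.05. The falls of the 3 genes were close in size, at 2.23-fold, 2.20-fold and 2.22-fold, and no array of one group overlapped the other (limma, adjusted p = 0.00547, 0.00593 and 0.00680). A dim further probe for Plk4, at 6.80 and 6.64 in controls, changed by -0.24 (log2) and missed the threshold. Hmmr, a spindle-associated protein, fell to 70.5% of control. Nek2, a centrosome kinase, read 6.09 and 6.21 against 6.29 and 6.25, near the bottom of the scale, and did not pass (log2 fold change 0.12, 95% interval from -0.14 to 0.38).

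All 7 genes of chromosome condensation fell, with a median log2 fold change of -0.76. Smc4, an ATPase of both condensins, read 14.18 on both control arrays and 13.21 and 13.19 on overexpression arrays, a 1.97-fold fall. Ncapd2 and Ncapg are subunits of condensin I. Ncapd2 read 10.22 and 10.05 against 9.03 and 9.13, a 2.08-fold fall, and its dimmer probe, at -0.41 (log2), missed the threshold (limma, adjusted p = 0.0863). Ncapg read 11.46 and 11.48 against 10.53 and 10.68, a 1.82-fold fall, so that in each of these 3 genes the groups were apart (limma, adjusted p = 0.00806, 0.00920 and 0.0121). Smc2, the partner of Smc4, fell to 66.9% of control at its brightest probe, and a further probe fell more, by 1.13 on the log2 scale (adjusted p = 0.0143). Ncaph, another condensin I subunit, fell to 66.0% and Top2a, the topoisomerase that untangles sister chromatids, to 64.2%. Mki67, the proliferation marker that coats mitotic chromosomes, fell to 59.0%, and 1 of its 2 other probes fell as well, by 0.93 on the log2 scale, while the other, at 6.93 and 6.60 in controls, missed the threshold.

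All 10 kinetochore and centromere genes fell, to between 47.0% and 63.5% of control. Spc25 and Ndc80 belong to the complex that grips microtubule ends. Spc25 read 12.15 and 12.21 in controls and 11.11 and 11.07 in overexpression samples, and Ndc80 read 11.62 and 11.68 against 10.72 and 10.65. Cenpa, the histone H3 variant of centromeres, read 15.77 and 15.87 against 14.83 and 15.01, close to the top of the scale in controls, where changes are compressed. The falls were 2.13-fold, 1.95-fold and 1.87-fold, and groups did not overlap (limma, adjusted p = 0.00655, 0.00886 and 0.0129). The other 2 subunits of the Ndc80 complex, Nuf2 and Spc24, fell 1.57-fold and 1.62-fold, and a further Spc24 probe fell by 1.24 on the log2 scale. The inner kinetochore genes Cenph, Cenpi and Cenpk fell to 59.0%, 52.3% and 57.6%. Cenpf, of the outer kinetochore, was dim and fell to 49.7%. Cenpe, a kinetochore motor, fell to 62.6%, as did 1 of 2 further probes (by 0.87 on the log2 scale), while the last, at 6.10 and 6.02 in controls, missed the threshold.

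The 4 genes of the chromosomal passenger complex, which corrects faulty attachments and later marks the cleavage plane, all fell. Birc5 (survivin) read 13.97 and 14.01 in controls and 12.69 and 12.78 in overexpression samples, a 2.39-fold fall. The 2 further Birc5 probes fell by 0.98 and 1.96 on the log2 scale. Incenp, the scaffold, read 12.49 and 12.73 against 11.29 and 11.70. Cdca8 (borealin) read 12.06 and 11.90 against 11.08 and 11.04. Overexpression arrays were below controls in each (limma, adjusted p = 0.00500, 0.0187 and 0.0111), with falls of 2.17-fold for Incenp and 1.89-fold for Cdca8. Aurkb, the kinase of the complex, had the smallest fall of the 4, to 70.5% of control (adjusted p = 0.0331).

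Of 5 spindle checkpoint genes, 4 fell. Bub1, a checkpoint kinase, read 10.09 and 9.91 in controls and 8.75 and 8.53 in overexpression samples, to 39.0% of control. Mad2l1, which blocks Cdc20 at unattached kinetochores, read 13.42 and 13.44 against 12.52 and 12.58, to 54.3%. Bub1b (BubR1), its partner in the inhibitory complex, read 12.96 and 12.68 against 11.97 and 11.88, to 53.8%. The arrays of the groups did not overlap in any of the 3 (limma, adjusted p = 0.00700, 0.0101 and 0.0168). Ttk (Mps1), the kinase at the head of the checkpoint, fell to 53.4%. Bub3, the adaptor that binds Bub1 and BubR1 and also has an interphase role in splicing, read 11.31 and 11.36 against 11.18 and 11.16 and did not pass. Its level was 89.2% of control, and the 95% interval of its log2 fold change ran from -0.42 to 0.08.

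Mitotic kinesins held the largest falls of the list and also 3 of the 7 genes that did not pass. Of 11 measured, 8 fell. Kif11 (Eg5), which pushes spindle poles apart, read 10.37 and 10.50 in controls and 8.86 and 8.73 in overexpression samples, a 3.12-fold fall. Kif4, a chromosome-arm and midzone motor, read 10.57 and 10.36 against 8.98 and 8.97, a 2.81-fold fall, and a further probe fell by 0.86 on the log2 scale. Kif18a, which dampens chromosome movements, read 9.24 and 9.30 against 7.99 and 7.88, a 2.52-fold fall. In these 3 genes the distance between the groups was several times that between arrays of a group (limma, adjusted p = 0.00347, 0.00472 and 0.00477). Kif18b, which shortens astral microtubules, fell 2.79-fold, and a further probe for it by 1.16 on the log2 scale. Kif23, a subunit of centralspindlin, fell 2.23-fold, Kif2c (MCAK), a microtubule depolymerase, 1.90-fold, Kif22, an arm motor, 1.77-fold, and Kif20b 1.76-fold.

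The other 3 motors did not pass. Kif15, which backs up Kif11, read 8.97 and 8.52 in controls and 8.09 and 8.17 in overexpression samples, without overlap (limma, adjusted p = 0.0657), and 1 of 2 further probes passed, at -0.66 (log2). Kif20a, a cytokinesis motor, read 7.77 on both control arrays and 8.01 and 8.08 on overexpression arrays, the opposite order (adjusted p = 0.127). Kif14, another cytokinesis motor, read 6.66 and 7.02 against 7.17 and 6.97, and was the only 1 of the 56 genes in which the groups overlapped. Of the 5 genes of the list whose mean lay below the median of all probes, 2 fell (Cdk1 and Cenpf), and of the 51 above it, 47 fell.

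Genes of anaphase and mitotic exit were split, with 2 of 4 lower. Ube2c, the ubiquitin-conjugating enzyme of the anaphase-promoting complex, read 14.52 and 14.48 in controls and 13.26 and 13.47 in overexpression samples, a 2.20-fold fall. Cdc20, the activator that starts anaphase, read 13.70 and 13.51 against 12.69 and 12.79, a 1.82-fold fall, and 2 further probes fell by 1.18 and 1.14 on the log2 scale. Both genes kept the groups apart (limma, adjusted p = 0.00861 and 0.0141). Pttg1 (securin), the inhibitor of separase, went the other way, at 8.78 and 8.75 against 8.98 and 9.20, and did not pass (log2 fold change 0.33, 95% interval from 0.03 to 0.62, adjusted p = 0.126). Fzr1 (Cdh1), the activator that keeps the complex on through G1, read 11.59 and 11.49 against 11.38 and 11.06 and did not pass (80.1% of control, adjusted p = 0.183), nor did a further probe at -0.36 (log2).

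All 4 cytokinesis genes fell. Anln (anillin), a scaffold of the contractile ring, read 12.57 and 12.49 in controls and 11.52 and 11.57 in overexpression samples, to 50.5% of control. Racgap1, the partner of Kif23 in centralspindlin, read 9.10 and 9.11 against 7.82 and 8.12, to 45.5%. Prc1, which bundles the central spindle, read 14.34 and 14.18 against 13.51 and 13.35, to 56.3%. Each overexpression array lay below each control (limma, adjusted p = 0.00871, 0.0107 and 0.0160). Ect2, the exchange factor that activates RhoA at the cleavage plane, fell to 56.8%. A dimmer probe of Anln was at -0.71 (log2) and missed the threshold (adjusted p = 0.0522). Over the 15 genes of the list with several probes, 12 of the 20 other probes fell, 0 rose and 8 did not pass, and 7 of those 8 had a mean below the median of all probes.

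**Figure D3:**
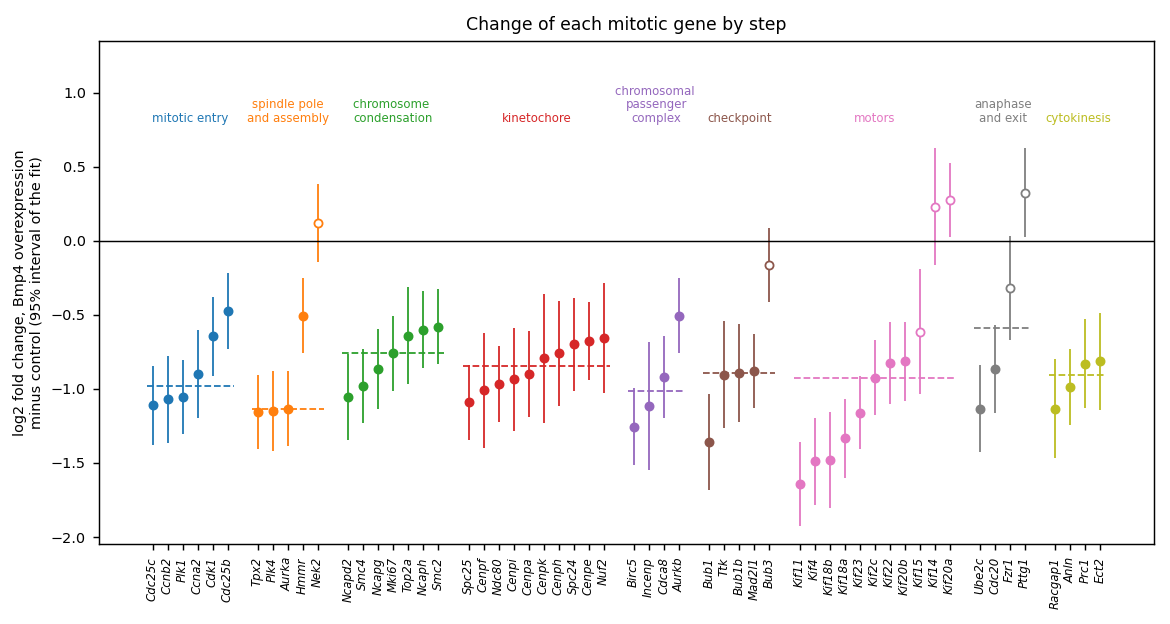
Log2 fold change (vertical axis, Bmp4 overexpression minus control) of each mitotic gene with the 95% interval of the limma fit, ordered within each step. Filled points passed the adjusted threshold, open points did not, and dashed lines are the step medians, which run from -1.14 for spindle pole and assembly to -0.59 for anaphase and exit.

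Genes of the same machinery outside the list fell in part. Among other kinetochore and centromere genes, 17 of 31 fell and 0 rose, with a median log2 fold change of -0.52. Cenpn and Cenpm, inner kinetochore proteins, fell by 1.16 and 1.01 on the log2 scale, Sgo2a, which protects centromeric cohesion, by 1.10, and Knl1, the platform for Bub1, by 0.84. Further probes of Sgo2a (-0.38 and -0.075 on the log2 scale) and Knl1 (-0.16) missed the threshold. Among other spindle and centrosome genes, 20 of 28 fell and 0 rose, with a median of -0.68. The smallest p-values there were those of Gtse1 (log2 fold change -1.18), Troap (-1.27), Sapcd2 (-1.04) and Stil (-0.96), a centriole assembly gene. Among other regulators of entry and exit, 9 of 16 fell and 0 rose, with a median of -0.69; the kinase genes Pbk and Melk had -1.11 and -1.05, and Cdca3 and Cdca2 had -0.92 and -1.05. At an unadjusted p under 0.05 in limma, 25 kinetochore and centromere genes were lower and 1 higher, 22 spindle and centrosome genes lower and 0 higher, and 12 regulators lower and 0 higher, beside 18.8% of all named genes lower at that threshold. The counts by adjusted p stood beside 9.54% of all named genes lower.

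In other groups of the machinery the median lay closer to 0, at -0.24 for cohesin and further condensin genes, -0.17 for the anaphase-promoting complex, -0.18 for further cytokinesis genes and 0.01 for interphase kinesins. In the anaphase-promoting complex, the large ubiquitin ligase that Cdc20 and Fzr1 activate, 1 of 14 genes fell (Anapc1, log2 fold change -0.46) and 0 rose (limma; at an unadjusted p under 0.05, 3 were lower and 1 higher, beside 18.8% and 17.6% of all named genes). A further Anapc1 probe, at -0.18, missed the threshold. Of 14 cohesin and further condensin genes, 5 fell and 1 rose. The falls included Esco2 (-1.29) and Cdca5 (-0.86), which establish and protect cohesion in S and G2 phase, and Ncapd3 (-0.56) of condensin II. A further Ncapd3 probe, at -0.185, missed the threshold. Smc3, a ring subunit of cohesin, rose by 0.61 at its brightest probe, while 3 further probes were at -0.17, 0.12 and 0.15 and missed the threshold. Of 10 further cytokinesis genes, 4 fell: Arhgap11a (-0.96), Chmp4b (-0.92), Cit (-0.85) and Shcbp1 (-0.74). Further probes of Arhgap11a (-0.165 and 0.145) and Cit (-0.385) missed the threshold, while that of Chmp4b fell (-0.79). Among 23 interphase kinesins and light chains, 1 fell (Kif27, -0.48) and 2 rose (Kif17, 0.98, and Kif5a, 0.65). A further Kif27 probe, at -0.305, missed the threshold. Kif1c did not pass at its brightest probe (-0.33), while a further probe fell by 0.60 (limma, adjusted p = 0.0233). By adjusted p, the shares of these interphase genes (4.35% lower and 8.70% higher) were near those of all named genes, 9.54% lower and 7.39% higher. So was that of the anaphase-promoting complex (7.14% lower). At an unadjusted p under 0.05 (limma), 7 of the 23 interphase genes were lower and 4 higher, beside 18.8% and 17.6% of all named genes. Their lower share was thus near that of all named genes only at the adjusted threshold. By adjusted p, 35.7% of the cohesin and condensin genes and 40.0% of the cytokinesis genes were lower.

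Regulators upstream of the mitotic genes and genes of the preceding phase were lower in part. Of 21 MuvB, Myb, Rb, E2F and NF-Y genes, 8 fell and 0 rose, with a median log2 fold change of -0.35. Mybl2 (B-Myb), which joins MuvB to activate mitotic genes, fell by 0.90 on the log2 scale. Lin54, the MuvB subunit that contacts the CHR, fell by 0.82. The MuvB subunits Lin9 (-0.47), Lin37 (-0.025) and Rbbp4 (-0.035) did not pass. The E2F partner Tfdp1 also fell by 0.82, and E2f3 fell by 0.64. Further E2f3 probes were at -0.77, which passed, and at 0.01, which did not. Of 39 genes of the G1/S transition and DNA replication, 23 fell and 0 rose, with a median of -0.56, and the smallest p-values were those of Ccne1 (-1.58), Tk1 (-1.52), Ccnd1 (-1.10) and Ccne2 (-0.92). Further probes of Tk1 (-0.78) and Ccnd1 (-1.355, -1.305 and -1.17) also fell, while that of Ccne2 (-0.53) missed the threshold. At an unadjusted p under 0.05 in limma, 12 of the 21 and 32 of the 39 were lower and 0 higher, beside 18.8% and 17.6% of all named genes. By adjusted p, 38.1% and 59.0% of these lists were lower, beside 9.54%. Of 6 CDK inhibitor genes, 1 rose and 1 fell (16.7% each, beside 7.39% higher and 9.54% lower over all named genes). Cdkn1a (p21), a CDK inhibitor, read 10.17 and 10.29 in controls and 11.22 and 11.17 in overexpression samples, a 1.95-fold rise without overlap (limma, adjusted p = 0.00933), and a further probe rose by 0.56 on the log2 scale. Cdkn2c (p18) fell by 0.60, and Cdkn1c, near the top of the scale in both groups, could not be read for a change. Cdkn1b did not pass at its brightest probe (-0.31), which was dim, while a further dim probe fell by 0.49 (limma, adjusted p = 0.0378).

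**Figure D4:**
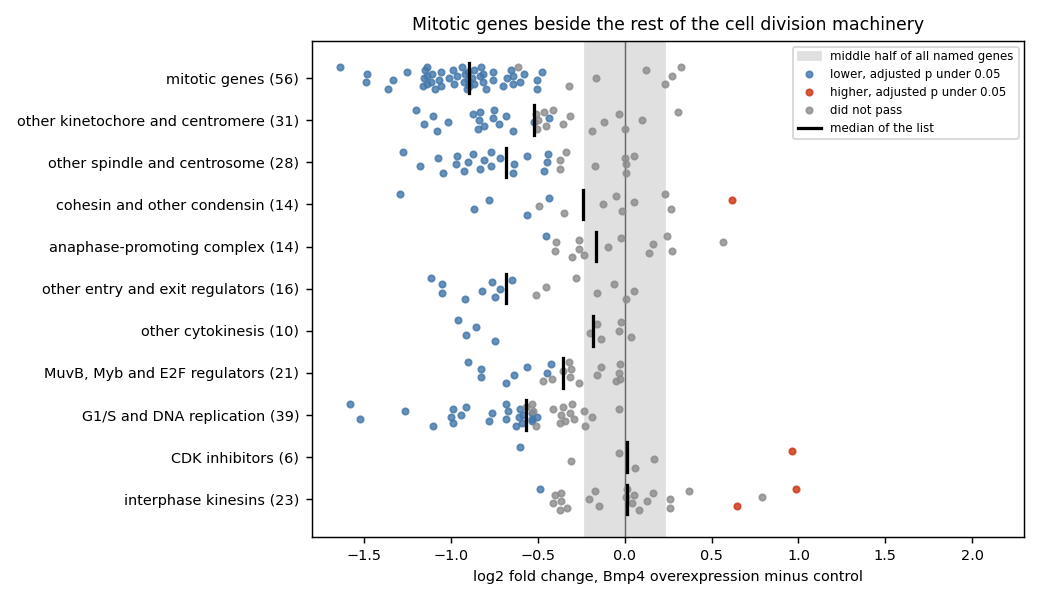
Log2 fold change (horizontal axis, Bmp4 overexpression minus control) of every measured gene of the mitotic list and of 10 further lists, with the number of genes in brackets. Blue points are lower and red points higher at an adjusted p under 0.05, grey points did not pass, black bars are list medians and the grey band spans the quartiles of all named genes, -0.23 to 0.24. The mitotic median of -0.90 lies furthest from 0.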

How the data were processed

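Total RNA was amplified, coupled to Cy5 and hybridised 1 sample to an array, per the labels' protocols. The deposited table holds log2 intensity values for 29922 probes on 4 arrays. The log base was read from the range (5.68 to 16) and the sorted columns were identical, so the arrays had been quantile-normalised, which hides any shift of all genes together. The scanner and background correction are not stated, and detection calls were not used here. Probes were named from the platform annotation, with 3410 of 21020 old symbols updated by RefSeq synonyms. All probes were fitted with limma 3.58.1 (R 4.3.3; lmFit and eBayes, 2 residual and 3.59 prior degrees of freedom), after a run on simulated data. An exact permutation test of 2 against 2 arrays cannot go below p = 0.333. Values are printed per array for the 3 genes with the smallest p in each step and, added after their values were seen, for genes that did not pass, and the wider lists name up to 4 genes by smallest p. The genes and lists were chosen with earlier results of these data known, so no list was given a p-value. Alternatives covered scaling, filters, probe choice, the variance model, the replicate block and leaving out each array. Promoter windows came from RefSeq (GRCm38.p6).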

Additional observations from a re-analysis of the deposited data

How the results depend on the processing

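Of the 56 mitotic genes 49 fell. With a constant of 50 added on the linear scale or a variance trend, 49 and 48 of the 56 fell. With 1 probe per gene or the mean of a gene's probes, 50 fell in each. With probes below the lower quartile removed 49 of 55 fell, and with those below the median removed 47 of 51. Centring the arrays on their medians or quantile-normalising once more could change no result, because the sorted columns were already identical. The median log2 fold change of -0.90 became -0.87 with the plus-50 scale and -0.87 with the mean of probes. With the second-brightest probe, which only 15 genes have, 10 were lower and the median was -0.86. The 2-fold threshold with an unadjusted p left 19. Leaving out any array left 0 to 0 genes past the adjusted threshold, with 1 residual degree of freedom and the lone sample assumed to vary like the other group, and medians from -0.92 to -0.86. The replicate block also left 0 lower genes, with 50 lower at an unadjusted p under 0.05. Same-numbered arrays share only a number (correlation of deviations -0.07), so the pairing is not known. In all of these settings on the brightest probe, 50 to 52 genes had a value below 0, and 0 were higher past the adjusted threshold. Dim probes and the number of arrays limit the precision.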
